A study of Canis lupus familiaris with 4 samples.

Results

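In 409 places of the canine genome, several neighbouring sites of accessible chromatin were all at least 2-fold stronger 2 h after epithelial cells were reseeded than in the mature monolayer. Together these runs held 1344 of the 59081 peaks measured (2.27%). The assay was ATAC-seq: a transposase, Tn5, cuts open DNA and leaves sequencing adapters at the cut. The cells were MDCKII, a canine kidney line that forms a polarised epithelial sheet in culture. The mature group (2 libraries, A and B) had been grown for 7 d, and the reseeded group (2 libraries, A and B) had been grown in the same way, detached and plated again for 2 h. All libraries came from wild-type cells of this line, and the labels name no other agent or allele.

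The members were chosen by their own values, so the difference between the groups is a description here, and no test of it counts as support. Counts were divided by the library's total in peaks and given as CPM, the count a library of standard size would have. The mean CPM of the reseeded libraries plus 0.5 was divided by the mean of the mature libraries plus 0.5, and a peak with a fold of at least 2 is called gained below. A run is an unbroken series of 3 or more consecutive peaks of the table on a numbered chromosome, all gained, with midpoints of neighbours at most 10 kb apart. Of 57672 peaks on the 38 numbered chromosomes, 15251 were gained (26.4%), and 8.81% of these lay in runs. Positions are in CanFam3.1 and count from 1.

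Accessible sites mark DNA that nucleosomes leave free, mostly promoters, enhancers and other elements that bind regulatory proteins. Enhancers often lie in groups, and the elements of a group can open together when a nearby gene is switched on. Detaching an epithelial sheet breaks contacts between cells and with the matrix, and reseeded cells spread and build these contacts anew. The runs are given by position: without a genome or gene models of that build, their genes and sequences were not analysed, nor was the cell line checked against marker genes.

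Depth, as the total of a library's counts in peaks, was 8759513 in mature A, 6253706 in mature B, 16906566 in reseeded A and 24015663 in reseeded B. A count of 3, taken as the floor, equalled 0.342 and 0.48 CPM in the mature libraries and 0.177 and 0.125 CPM in the reseeded ones. No member had 3 or fewer counts in both mature libraries, and 3 members had so few in one of them. A leading code in the library names is shared within each group and differs between the groups, so a batch that followed it and reseeding cannot be told apart. The labels do not tie the libraries to separate cultures, so the spread within a group may be technical.

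Peaks of the runs were weak in mature cells and of ordinary strength in reseeded cells. Their median was 3.54 CPM in mature A, 4.32 in mature B, 15.3 in reseeded A and 15.1 in reseeded B. The medians over all peaks of the numbered chromosomes were 12.1, 12.5, 13.0 and 13.0 CPM in the same order. Members thus lay far below the common level in both mature libraries and slightly above it in both reseeded libraries. In mature cells 863 members (64.2%) had a mean under 5 CPM, against 20.1% of all peaks and 65.1% of gained peaks outside runs. A mean under 10 CPM was found at 1173 members (87.3%), against 40.3% and 89.4%. The fold is divided by the mature level, so the rule favours peaks that are weak in mature cells. The quartiles over members were 2.44 and 6.5 CPM in mature and 10.4 and 24.2 CPM in reseeded cells.

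**Figure D1:**
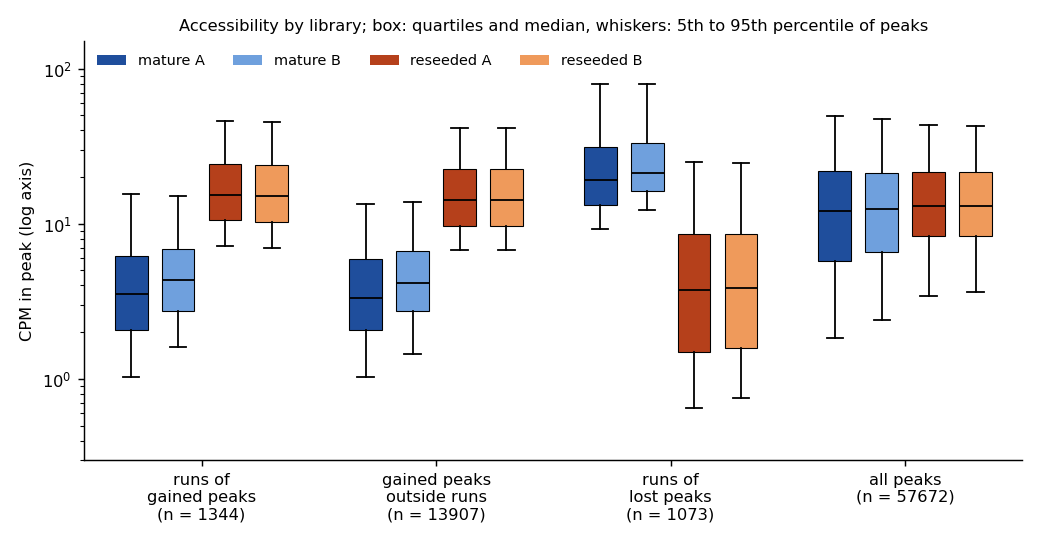
CPM in a peak (log axis) for each of the 4 libraries, in peaks of the runs of gained peaks, gained peaks outside runs, runs of lost peaks and all peaks of numbered chromosomes. Boxes give quartiles and median over peaks and whiskers the 5th to 95th percentile. Peaks of the runs have medians of 3.54 and 4.32 CPM in the mature libraries and 15.3 and 15.1 CPM in the reseeded ones.

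The median fold of the members was 3.33, a log2 fold of 1.74 with quartiles of 1.36 and 2.23. At least 4-fold differences were seen at 466 members (34.7%), against 8.24% of all peaks. At least 8-fold differences were seen at 47 of 1344 members. They were seen at 521 of 57672 peaks of numbered chromosomes and at 474 of 13907 gained peaks outside runs. By edgeR's quasi-likelihood test, fitted to the whole table at an adjusted p under 0.05, all 1344 members were called higher, against 42.3% of all tested peaks. Both reseeded libraries exceeded both mature libraries in CPM at all 1344, against 47.1% of all peaks. The rule used this contrast, so these counts follow from it. The median standard error of a member's log2 fold in that fit was 0.18. Under loess offsets, which bend the scaling with mean level, 1043 members were called higher, against 33.0% of all tested peaks. The median log2 fold of all members was then 1.26 in place of 1.85. Under these offsets 861 members kept a log2 fold of at least 1, 128 had one below 0, and a search for runs gave 143 in place of 409.

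Runs were also chosen in the libraries of 1 letter and read in those of the other, as a description. All libraries share the peak table, and those of a group share a leading code and may be technical repeats. Agreement was therefore likely beforehand and counts as no support. When mature A and reseeded A alone chose the runs, they gave 1486 peaks in 450 runs. Read in mature B and reseeded B, 1276 of these peaks (85.9%) again had a fold of at least 2 and 1485 had a fold above 1. Among all peaks of numbered chromosomes 24.7% had a fold of at least 2 in the B libraries. The 1486 chosen peaks had a median log2 fold of 1.86 in the A libraries that chose them and 1.60 in the B libraries. In the reverse direction the B libraries chose 1112 peaks in 342 runs. Of these, 1066 (95.9%) had a fold of at least 2 in the A libraries, against 28.2% of all peaks. The median log2 fold of the 1112 peaks was 1.69 in the B libraries that chose them and 1.95 in the A libraries. Every peak of the run reached a fold of 2 in the other pair in 281 of the 450 runs and in 297 of the 342. With 1 library a side there is no replicate check on each value.

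Runs were short. Of the 409, 316 had 3 peaks (77.3%), 75 had 4, 12 had 5 and 6 had 6. Their span from the first to the last base had a median of 8.9 kb and ranged from 1.75 to 30.4 kb, 3.83 Mb in all. Neighbouring members lay 3.27 kb apart at the median of 935 gaps. Gaps of up to 1 kb made up 160 of them (17.1%). All peaks of the table have the same width, and at that distance they may belong to a single open site. In 15 runs every gap was that short, and 307 runs still held 3 or more separate sites when such peaks were joined. In 198 runs (48.4%) the run was the whole stretch of peaks spaced by at most 10 kb, with no other peak attached to it.

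Summed over its peaks, runs had a median of 15.5 CPM in mature and 58.0 CPM in reseeded cells, and the median of their folds was 3.54. Folds of summed CPM went from 2.15 to 8.79, and 142 runs reached 4-fold and 4 runs 8-fold. In all 409 runs the lower reseeded library lay above the higher mature library, by at least 1.87 times, as the choice of peaks makes nearly certain. The median fold was 3.52 for runs of 3 peaks, 3.59 for 4, 3.61 for 5 and 4.22 for the 6 runs of 6.

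**Figure D2:**
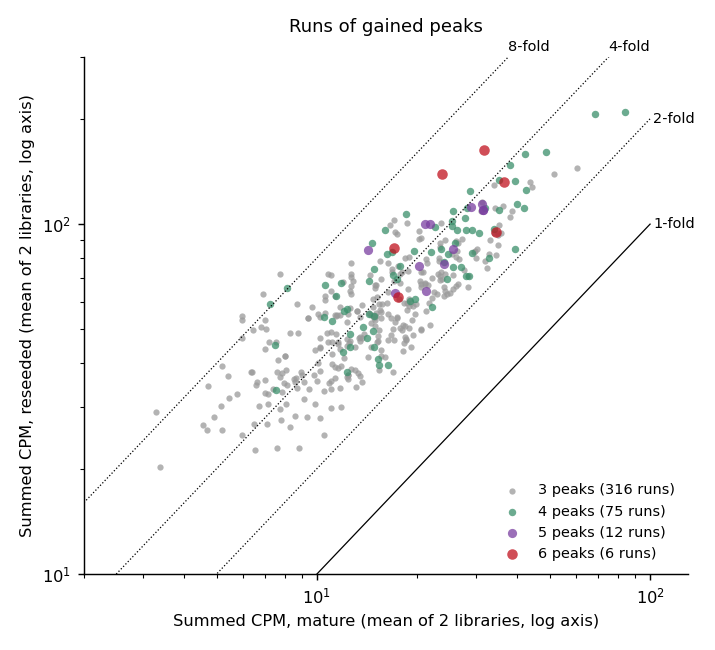
Each point is 1 of 409 runs, placed by its CPM summed over peaks in mature and reseeded cells (mean of 2 libraries, log axes) and coloured by its number of peaks. Lines mark equal levels and folds of 2, 4 and 8. Every run lies above the 2-fold line, and 4 reach 8-fold once 0.5 is added to each mean.

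The 6 runs of 6 peaks lay on chromosomes 4, 7, 12, 15, 21 and 28. The longest, on chromosome 15 from 33983265 to 34013696 (30.4 kb), had summed CPM of 19.1 and 28.5 in mature A and B and 140.0 and 139.0 in reseeded A and B, a fold of 5.77. Every one of its 6 peaks stood alone, with gaps of 3427 bp or more. Its strongest reseeded peak, from 34013196 to 34013696, had 5.14 and 8.16 CPM in the mature and 42.2 and 44.1 CPM in the reseeded libraries. The peak with its highest fold, 7.29, lay in the middle of the run from 33999113 to 33999613 and had 2.97 and 5.60 CPM against 34.2 and 34.5. In mature cells the mean of this middle peak (4.28 CPM) was close to that of the run's first peak (4.32 CPM), and in reseeded cells it was higher (34.4 against 26.3 CPM).

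On chromosome 21 from 21412644 to 21438837, the run had 17.1 ± 4.04 CPM in mature and 85.2 ± 2.98 CPM in reseeded cells (mean ± SD, n = 2), a fold of 4.86. Its peaks were the most alike in fold of all runs with 5 or more peaks, from 3.36 to 6.25. The first 3 peaks had mature means of 2.25, 1.77 and 1.68 CPM and reseeded means of 14.5, 13.4 and 13.1. These 3 peaks were thus weak to a like degree before and near the common level of peaks after, with folds of 5.47, 6.13 and 6.25.

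On chromosome 4 from 39548773 to 39566486, the run had 26.7 and 36.6 CPM in mature A and B and 162.0 and 164.0 in reseeded A and B, a fold of 5.09. Both ends were strong after reseeding and the middle was not. The last peak, from 39565986 to 39566486, had 7.19 and 8.47 CPM in mature and 49.4 and 49.6 CPM in reseeded cells. An inner peak, from 39558810 to 39559310, had 3.65 and 5.28 against 10.6 and 11.1 CPM, a fold of 2.29. This run was part of a stretch of 22 peaks.

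The other runs of 6 peaks had lower folds. On chromosome 7 from 19866177 to 19878668 the summed CPM were 33.1 and 36.1 in mature and 97.1 and 92.8 in reseeded cells, a fold of 2.72. There the strongest peak of the mature state, from 19870236 to 19870736, was also the strongest after reseeding and had the lowest fold of its run, 2.03. On chromosome 12 from 44108038 to 44126820 the sums were 15.5 and 19.5 against 60.3 and 63.8 CPM, a fold of 3.47. On chromosome 28 from 4356150 to 4372107, a run added to the named ones after its values were seen, they were 38.5 and 34.5 against 133.0 and 131.0 CPM, a fold of 3.58.

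**Figure D3:**
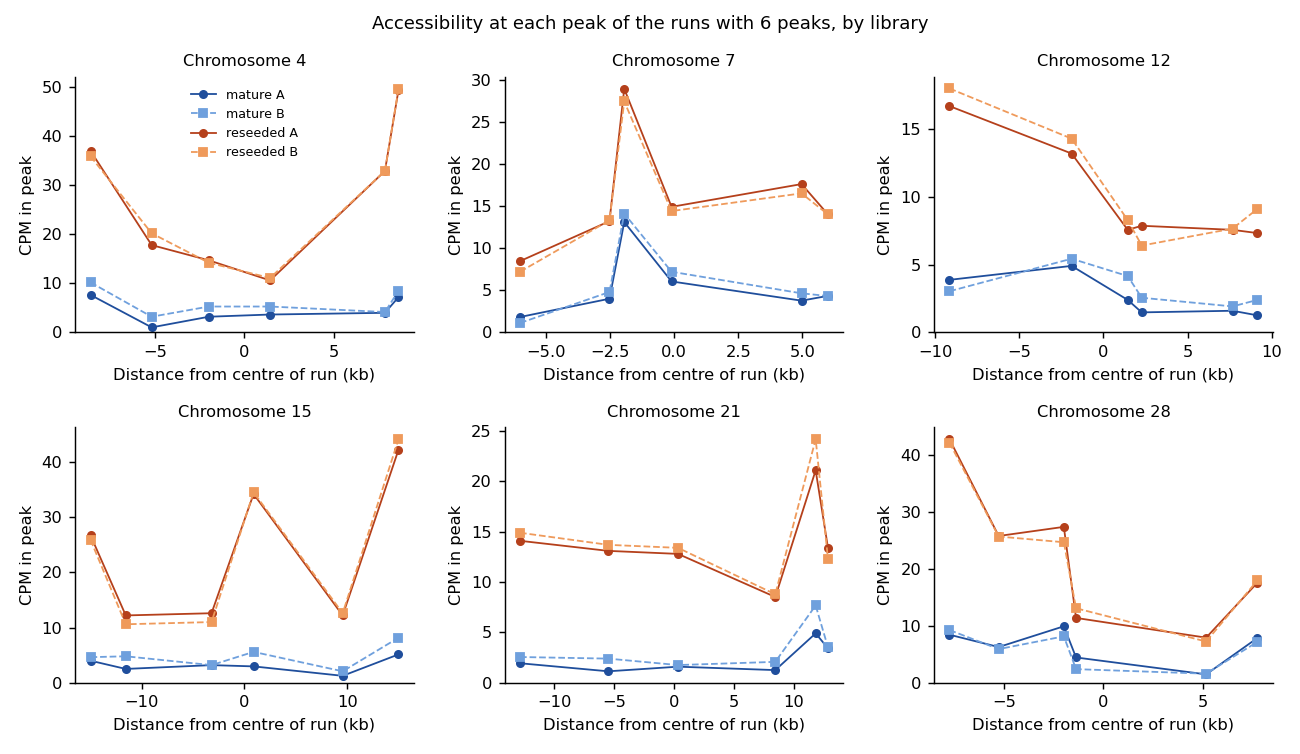
CPM in each peak (vertical axis) against the distance of the peak from the centre of its run in kb, for the 6 runs with 6 peaks. Blue lines are the mature and orange-brown lines the reseeded libraries, solid with circles for A and dashed with squares for B. At each of these peaks both reseeded values lie above both mature values, and the A and B lines of the reseeded group nearly coincide.

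The 5 runs with the highest folds had 3 peaks each, as most runs did, and weak peaks in mature cells. The highest, on chromosome 2 from 79431887 to 79436873, had 7.31 and 8.16 CPM in mature A and B and 73.5 and 70.2 in reseeded A and B, a fold of 8.79. Its last peak, from 79436373 to 79436873, had 1.71 and 1.60 CPM against 31.3 and 31.5, a fold of 14.8. Pooled over libraries that peak had 25 mature and 1287 reseeded counts, a ratio of 18.9 after scaling (95% exact Clopper-Pearson interval 12.7 to 29.3, for counting error only). In mature cells it was the weakest of the 3 peaks, and after reseeding it was the strongest.

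On chromosome 14 from 13659765 to 13666765 the run had sums of 5.94 and 7.84 CPM in mature and 63.9 and 62.7 in reseeded cells, a fold of 8.64. On chromosome 30 from 6405925 to 6413622 the sums were 5.02 and 6.88 against 54.7 and 54.7 CPM, a fold of 8.55. On chromosome 10 from 9326989 to 9336256 they were 5.25 and 6.72 against 52.8 and 53.5 CPM, a fold of 8.27. That last run lay in a sparse place, with a median of 7 other peaks within 500 kb of its members. The next, on chromosome 12 from 7272841 to 7277167, had 3.08 and 3.52 against 29.3 and 28.8 CPM, a fold of 7.78. In all 5 runs the mature level per peak was at most 3.69 CPM.

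The member with the highest fold of all, 20.2, lay on chromosome 11 from 23827999 to 23828499. It had 0.913 and 1.44 CPM in mature A and B and 31.6 and 35.2 in reseeded A and B. The 17 mature and 1381 reseeded counts gave a pooled ratio of 29.8 (interval 18.5 to 51.3). Its run, from 23827999 to 23837320, had 4 peaks with folds of 2.70 to 20.2, so the other members changed far less. After this peak and that on chromosome 2, the next was on chromosome 23 from 26638689 to 26639189, with 1.48 and 1.76 against 25.5 and 26.3 CPM, a fold of 12.4.

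The 3 runs with the highest mature level had folds of 2.39 to 3.02, below the median of all runs. On chromosome 38 from 336499 to 359386, 4 peaks had summed CPM of 84.7 and 83.5 in mature and 209.0 and 209.0 in reseeded cells, a fold of 2.48. Its second peak, from 342112 to 342612, was the strongest member after reseeding, with 48.1 and 45.4 against 104.0 and 101.0 CPM. The run on chromosome 17 from 7166245 to 7186841 had 65.6 and 71.0 against 210.0 and 204.0 CPM, a fold of 3.02. Its peak from 7178561 to 7179061 changed most, from a mean of 10.3 CPM in mature to 71.6 and 69.2 CPM in the reseeded libraries. That brought it about level with a neighbour, the strongest in mature cells, which had 69.4 and 67.5 CPM in reseeded A and B. Next to these in mature level, the run on chromosome 15 from 1639507 to 1643947 had 57.7 and 63.2 against 147.0 and 143.0 CPM, a fold of 2.39.

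The 5 runs with the highest reseeded level were those on chromosomes 38 and 17, the run of 6 peaks on chromosome 4 with its fold of 5.09, and those on chromosomes 1 and 10. On chromosome 1 from 71866601 to 71880241 the sums were 48.3 and 48.9 in mature and 162.0 and 159.0 CPM in reseeded cells, a fold of 3.28. On chromosome 10 from 25690997 to 25708796 they were 34.5 and 49.9 against 159.0 and 159.0 CPM, a fold of 3.73. The other strongest peaks among the members were on chromosome 2 from 73282339 to 73282839, with 31.6 ± 2.17 against 87.5 ± 6.85 CPM (mean ± SD, n = 2), and on chromosome 11 from 22309190 to 22309690, with 18.7 and 19.8 against 80.1 and 85.9 CPM.

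A lower mature level went with a higher fold across all runs as well. In 112 runs (27.4%) every peak had a mature mean under 5 CPM, and their median fold was 4.49. In 27 runs (6.6%) every peak had at least 5 CPM in mature cells, with a median fold of 3.02 and none above 3.98. The other 270 runs (66.0%) joined weaker and stronger peaks and had a median fold of 3.35. Fold and mature level share the mature counts, so this order is a description. The division at 5 CPM was chosen after the values were seen.

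After the run of 6 on chromosome 15, the longest were on chromosome 3 from 69574051 to 69601433 (27.4 kb, 4 peaks) and on chromosome 19 from 35166716 to 35193471 (26.8 kb, 5 peaks). The first had 17.5 and 27.8 CPM in mature and 101.0 and 95.2 in reseeded cells, a fold of 4.25, and its mature libraries stood well apart. The second had 17.2 and 24.9 against 99.6 and 100.0 CPM, a fold of 4.65. The 3 shortest, of 1.75 to 1.82 kb, had 3 adjoining peaks each. That on chromosome 4 from 43740677 to 43742422 had 12.4 and 16.5 against 54.9 and 55.3 CPM, a fold of 3.72. On chromosome 2 from 31378472 to 31380261 the sums were 19.0 and 16.0 against 74.1 and 77.6 CPM, a fold of 4.25, and on chromosome 25 from 9221415 to 9223231 they were 20.8 and 25.3 against 63.5 and 62.4 CPM, a fold of 2.70. In these short runs 1 peak held most of the signal after reseeding, from 55.5% to 67.6%.

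Members of a run shared the direction that chose them, but little of the size of the change. Within runs the SD of the log2 fold was 0.55, and between runs it was 0.19, so 11.2% of the variance lay between runs. The highest peak fold of a run was 1.87 times its lowest at the median, and at least 2 times in 170 runs and at least 3 times in 50. Among runs with 5 or more peaks, the widest range was on chromosome 3 from 13056926 to 13073250, where folds went from 2.46 to 12.2. The peak with the fold of 12.2, from 13057982 to 13058482, had 1.14 and 1.92 CPM in mature and 23.9 and 24.7 CPM in reseeded cells. Another peak of that run, from 13062107 to 13062607, had 15.1 and 13.0 against 35.1 and 35.2 CPM.

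Closer and more distant members of a run differed in fold by about as much. Neighbours up to 1 kb apart differed by 0.47 in log2 fold at the median (160 pairs), those from 1 to 5 kb apart by 0.50 (478 pairs) and those from 5 to 10 kb apart by 0.48 (297 pairs). All pairs had passed the same bound of 2, which narrows their differences.

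In 290 of 409 runs (70.9%) the peak that was strongest in mature cells was also the strongest in reseeded cells. The strongest peak held 48.8% of the run's CPM in mature and 46.3% in reseeded cells at the median. In 199 runs the highest fold was at the weakest mature peak, and in 153 at the strongest reseeded peak. Outermost members (818) had a median log2 fold of 1.75 and inner members (526) one of 1.70, and in 188 of 409 runs the inner members had the larger mean.

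Of 818 ends of runs, 556 met no further peak within 10 kb and 262 met a peak that was not gained. These 262 neighbours, at a median of 4.28 kb, had medians of 13.0 CPM in mature and 12.8 CPM in reseeded cells, against 3.76 and 15.0 CPM at the outermost members. Their median log2 fold was 0.15. By the rule each had to be under 2-fold, so the step in fold at the end of a run is built in, and 81 were between 1.5-fold and 2-fold whereas 21 were at least 2-fold lower. Over all peaks of numbered chromosomes the medians were 12.3 and 13.0 CPM.

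Where a run ended at a gap, the next peak was often gained too. Of 556 such peaks, at a median of 24.9 kb, 246 were gained (44.2%), against 26.4% of all peaks of numbered chromosomes, and 46 were at least 2-fold lower (8.27%, against 13.5%). From 10 to 50 kb outside the runs 34.8% of 1944 peaks were gained, from 50 to 100 kb 36.8% of 1995, and from 100 to 200 kb 33.2% of 3532. A peak near several runs was counted each time. The share of gained peaks also moved with local density, being 37.6% where peaks were sparsest and 11.8% where they were densest, and its part in these shares was not tested.

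**Figure D4:**
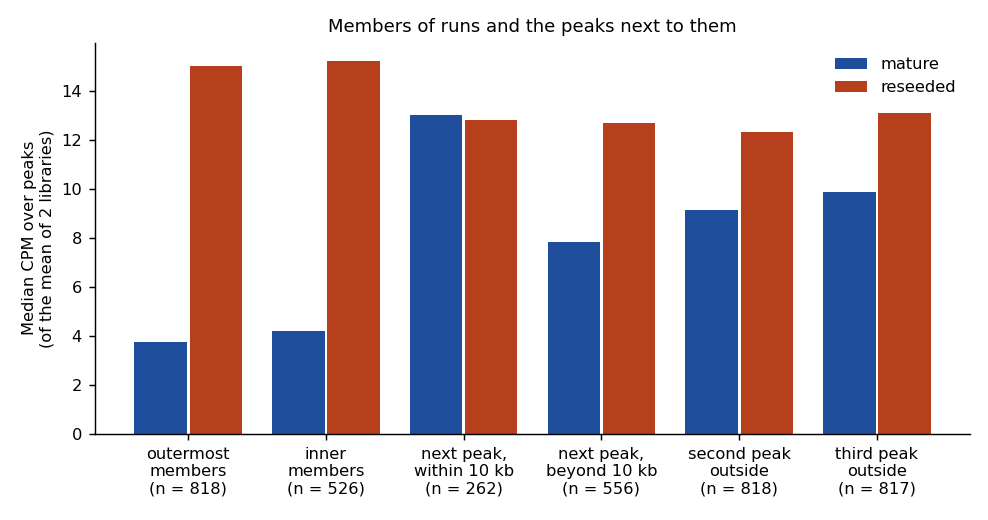
Bars give the median CPM over peaks (mean of 2 libraries) in mature and reseeded cells, for outermost and inner members of the runs and for the peaks next to them. Members have 3.76 and 4.2 CPM in mature and 15.0 and 15.2 CPM in reseeded cells. The next peak within 10 kb, which by the rule is under 2-fold, has 13.0 and 12.8 CPM.

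At the bound of the rule, the members with the lowest folds and the adjacent peaks with the highest differed by little. On chromosome 17 from 24803456 to 24803956 a member had 5.59 and 6.56 CPM in mature and 13.6 and 11.7 CPM in reseeded cells, with a fold of 2.00. The members next to the bound, from 2327441 to 2327941 of chromosome 13 and from 35074890 to 35075390 of chromosome 25, also had 2.00. Just outside it, a peak on chromosome 9 from 39037823 to 39038323 had 21.5 and 15.8 against 37.0 and 38.2 CPM, with a fold of 1.99. The others were at 37127172 to 37127672 of chromosome 2 (fold 2.00 after rounding) and at 58041439 to 58041939 of chromosome 7 (1.99).

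All 38 numbered chromosomes had at least 1 run. Members made up 2.33% of their peaks, from 0.876% on chromosome 31 to 5.42% on chromosome 29, with a median of 2.23%. Chromosome 29, which is poor in peaks (12.8 per Mb), had 8 runs with 29 of its 535 peaks. Chromosomes 22 (4.53%, 12 runs), 36 (4.19%, 6 runs) and 23 (4.03%, 13 runs) followed. The most runs were on chromosome 5, with 26 and 85 members, then on chromosome 7 with 23 and chromosome 4 with 22. Chromosome 9, the densest with 58.3 peaks per Mb, had 13 runs and 1.1% of its peaks in them. Chromosomes 31 and 33 had 2 runs each.

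Runs were most frequent at middling peak density. In the third decile of peaks by local density (median 28 other peaks within 500 kb) 3.54% were members, in the sparsest decile (median 12) 2.48% and in the densest (median 104) 0.745%. Gained peaks themselves fell steadily over these deciles, from 37.6% to 11.8%. A run needs neighbours within 10 kb as well as gains. Of the 29944 peaks in stretches of 3 or more at most 10 kb apart 21.0% were gained, and outside such stretches 32.4%. Of the gained peaks in stretches, 21.4% lay in runs. Members had a median of 39 other peaks within 500 kb, against 55 for all peaks in stretches. For gained peaks outside runs the median was 37, and for those of them in stretches 48, so a sparse setting was not particular to the runs.

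**Figure D5:**
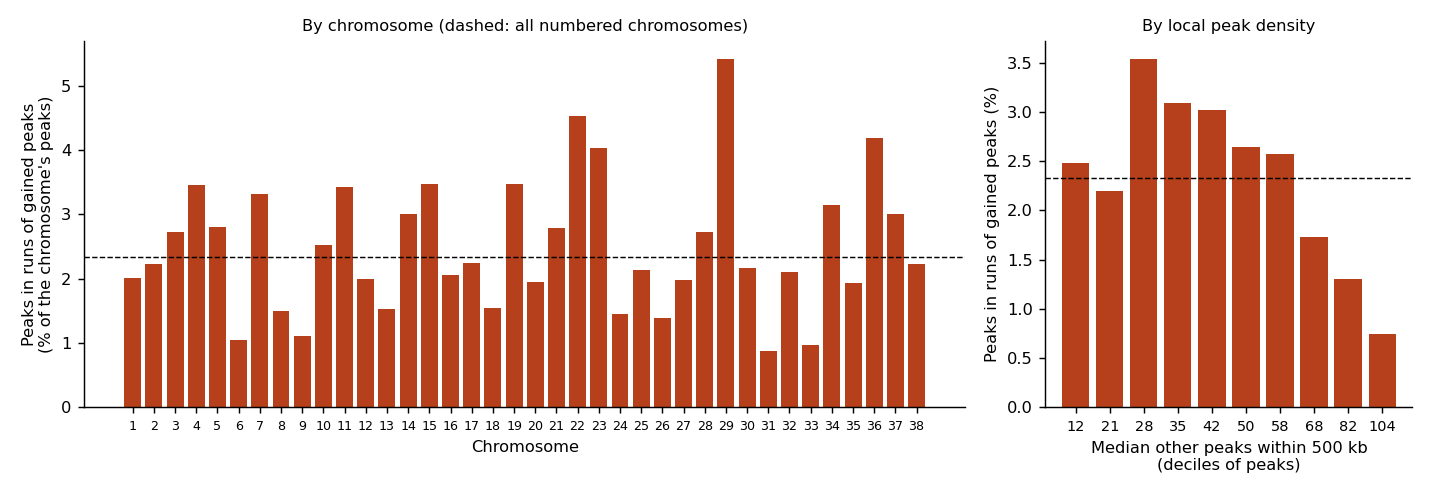
Share of peaks that belong to runs of gained peaks, in percent, by chromosome and by decile of peaks ordered by the number of other peaks within 500 kb. The dashed line is the share on all numbered chromosomes, 2.33%. Chromosome 29 has the highest share (5.42%), and the densest decile the lowest (0.745%).

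Some runs lay close to others. Of neighbouring runs on a chromosome, 16 pairs were within 50 kb of each other and 35 within 100 kb. On chromosome 5, 3 runs followed each other from 44016975 to 44026260, from 44054666 to 44063095 and from 44084355 to 44090620, with folds of 3.07, 3.52 and 4.14. The closest pair was on chromosome 1, from 54512076 to 54537974 and from 54541739 to 54552023, 3.77 kb apart, with folds of 2.75 and 3.73. In 11 windows of 1 Mb there were 3 or more runs. The windows with 4 runs were on chromosome 5 from 36000001 to 37000000 (13 of 51 peaks) and from 50000001 to 51000000 (12 of 59), and on chromosome 7 from 64000001 to 65000000 (13 of 58).

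Gained peaks outside runs had nearly the same levels as the members. These 13907 peaks had medians of 3.79 CPM in mature and 14.3 CPM in reseeded cells, against 3.93 and 15.1 CPM in the runs. Their median log2 fold was 1.67, and 30.8% were at least 4-fold higher, against 1.74 and 34.7%. Among the 4935 of them that lay in stretches, 24.7% were at least 4-fold higher. These differences were not tested, since all rest on the contrast that chose the peaks.

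Runs of lost peaks, found by the same rule with a fold of 0.5 or less, gave other values of length and spacing. There were 254 of them with 1073 peaks, and they reached 28 peaks, whereas the runs of gained peaks reached 6. Their gaps were of up to 1 kb in 45.5% of cases, against 17.1% in the runs of gained peaks and 22.0% in all stretches. Of the variance of their log2 folds 52.0% lay between runs, against 11.2%. They had a median of 69 other peaks within 500 kb, against 39. None of these differences was tested.

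The mature libraries differed slightly and in a common direction at the runs. Summed over the run, mature B exceeded mature A in 337 of 409 runs (82.4%), with a median log2 ratio of 0.20. They stood apart by over 1.5-fold in 25 runs, and the reseeded libraries in 0, with a median log2 ratio of -0.02. By peak the mature median was 0.23, the same as at gained peaks outside runs, and 0.03 over all peaks. Without mature A 1131 peaks in 349 runs met the rule, and without mature B 1501 in 455. Of the 1344 members, 1060 and 1278 were among these peaks.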

How the data were processed

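The deposited data are the authors' raw counts in 59081 ATAC-seq peaks of equal width for 4 libraries. Per the submitters' processing notes, Bowtie2 and MACS2 were used with CanFam3.1. The sources used here do not give tool versions, settings, duplicate handling or the unit counted (reads or insertions). Duplicates can raise counts, and sequence accessions were read as chromosome numbers.

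CPM, folds and runs were computed with numpy 2.4.6 and pandas 2.3.3, and exact intervals at 95% with scipy 1.17.1. The counts were fitted with edgeR 4.0.16 in R 4.3.3 (TMM, filterByExpr, quasi-likelihood test, Benjamini-Hochberg adjustment). This fit gave standard errors and calls. Both scripts were tested on simulated data. Figures used matplotlib 3.10.9.

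The members and lists were chosen with earlier results of these data known. Named runs, by sums over peaks: the 5 with most peaks, highest reseeded CPM and highest fold, the 3 with highest mature CPM, longest and shortest, and the narrowest and widest in fold among runs of 5 or more peaks. Also named: the 3 members with the highest fold, highest reseeded CPM and nearest the bound, and the 3 peaks just outside. Alternatives changed scaling, added constant, bounds, spacing, filter, libraries or test (DESeq2 1.42.0).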

Additional observations from a re-analysis of the deposited data

How the results depend on the processing

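Of 60 alternative values, 45 stayed within 1.5 times the count or within the spread between libraries. The number of members and runs follows the bounds of the rule. A fold of at least 1.5 gave 2722 peaks in 794 runs, one of at least 3 gave 351 in 112, midpoints at most 5 kb apart gave 661 in 208, those at most 20 kb apart 2453 in 704, and 4 or more peaks a run 396 in 93. The next 3 settings were added after the data were seen. Under loess offsets with a fitted fold of at least 2, 454 peaks in 143 runs remained, and 418 of these were members. A lower reseeded library at least 2 times the higher mature library gave 892 peaks. Thinning to the shallowest total gave 1288. The median log2 fold of members was 1.43 with 2 added to each mean CPM. The 1112 peaks that the B libraries alone chose, 1041 of them members, had a median of 1.95 in the A libraries. With a library left out, 1131 to 1501 peaks in 349 to 455 runs met the rule, and the median log2 fold of members was 1.64 to 1.88. Since the rule chose members on this contrast, calls of members could hardly change. The 9 values for calls among the 45 say nothing about stability. With the library letter as a replicate block 1344 members were called higher, as without it. The share of all tested peaks called higher was 41.8% with the block. Over all peaks, differences between A and B correlated at 0.031 between mature and reseeded cells, so the counts showed little shared shift by letter. The labels do not say whether libraries of a letter were handled together. Depth limits weak mature peaks most, where a count of 3 is 0.342 or 0.48 CPM.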

Other observations

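Chromosome X lay outside the rule. The same bounds gave 2 runs of 3 peaks there, among 1409 peaks of which 273 were gained. The run from 9504046 to 9518189 had a summed mean of 19.9 CPM in mature and 50.5 CPM in reseeded cells, and that from 96696010 to 96705471 had 10.3 and 31.0 CPM.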
